A study of Mus musculus with 9 samples.

Results

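Fibrillar collagen genes encode the chains of the collagens that assemble into the banded fibrils of the dermis. The 9 genes described here are Col1a1, Col1a2, Col3a1, Col5a1, Col5a2, Col5a3, Col11a1, Col24a1 and Col27a1, and they were taken by symbol from the 57180 rows of the deposited count table. The identifiers of the 3 major genes are ENSMUSG00000001506 for Col1a1, ENSMUSG00000029661 for Col1a2 and ENSMUSG00000026043 for Col3a1. Each of the 9 symbols matched 1 row, and all 9 passed the filter on low counts that left 17168 genes for testing.

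The samples are skin of BALB/c nude mice, which lack a thymus and most of their hair coat, sequenced as 3 groups of 3 libraries. NoUVB skin was not irradiated. The dorsal skin of UVB-Saline and UVB-hCOL3A1 mice was exposed to ultraviolet B for 8 weeks, every second day, with doses rising from 60 mJ/cm² (1 minimal erythemal dose) to 240 mJ/cm² (4 minimal erythemal doses). The first irradiated group was labelled with saline and the second with hCOL3A1, which the series title ties to messenger RNA for type III collagen. Skin was collected at day 28, counted from a day the labels do not name. The sources used here do not give age, sex, the RNA's dose and carrier, or which animal stands behind a library. The p-values therefore reflect only how far these libraries spread, and some of that spread may be technical. The labels name no saline for NoUVB and no carrier or other RNA for either irradiated group. Irradiation therefore cannot be told apart from saline in the first comparison, or collagen RNA from its carrier in the second. All rows carry mouse gene identifiers, and whether reads from the delivered human transcript entered the mouse Col3a1 count was not tested.

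A fibrillar collagen is made as a procollagen whose 3 chains wind into a triple helix in the endoplasmic reticulum, is secreted, loses its propeptides and is then crosslinked into fibrils. Type I collagen, built from the products of Col1a1 and Col1a2, is the main fibril of skin, and type III, a homotrimer of the Col3a1 product, copolymerises with it in stretchable tissue. Type V collagen, from Col5a1, Col5a2 and Col5a3, starts fibrils and limits their width. Type XI, to which Col11a1 contributes, has a like part in cartilage, and Col24a1 and Col27a1 encode minor fibrillar chains known mostly from the skeleton.

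Libraries held 7640172 to 12927411 estimated counts, and Rn18s-rs5, an 18S ribosomal RNA gene, accounted for 7.71% of them in NoUVB 2 and 34.3% to 55.3% in the other 8. The 9 collagen genes together held 40718 to 90086 estimated counts per library. The fewest behind a single value were 22, for Col24a1 in NoUVB 1, and the most were 40355, for Col1a1 in UVB-hCOL3A1 2. Values below are CPM, the share of a library's counts in the usual units, after TMM scaling between libraries. Of 15 markers listed for fibroblasts, the cells that make these collagens, 14 passed the filter and none was at 0 in every library. Of 11 cartilage markers 4 passed and Matn1 and Matn3 were at 0 in every library, and of 8 bone markers 3 passed and Bglap and Bglap2 were at 0.

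Col1a1, Col1a2 and Col3a1 made up 89.3% to 92.9% of the counts of the 9 genes in every library. Per kilobase of transcript, Col1a1 was the highest in NoUVB skin at 467 ± 69.9 CPM per kb (SD, n = 3), followed by Col1a2 at 262 ± 26.4 and Col3a1 at 227 ± 24.2. Col5a2 followed at 25.6 ± 2.95 and Col5a1 at 22.6 ± 2.51. The third type V gene, Col5a3, stood at 5.97 ± 2.15 CPM per kb. Col11a1 at 2.51 ± 0.381, Col27a1 at 1.88 ± 0.327 and Col24a1 at 0.755 ± 0.327 CPM per kb came last. The NoUVB ranges of Col1a2 and Col3a1 overlapped, as did those of Col5a2 and Col5a1 and those of Col11a1 and Col27a1. Within each NoUVB library the order was nevertheless the same: the Col3a1 to Col1a2 ratio per kb was 0.805, 0.915 and 0.883, that of Col5a1 to Col5a2 was 0.920, 0.846 and 0.885, and that of Col11a1 to Col27a1 was 1.33, 1.41 and 1.29.

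The order of Col1a2 and Col3a1 differed between the groups. In UVB-Saline, Col3a1 averaged 252 ± 21.8 and Col1a2 233 ± 11.04 CPM per kb (SD, n = 3), with overlapping ranges but Col3a1 the higher within each library. In UVB-hCOL3A1, Col3a1 averaged 338 ± 19.3 and Col1a2 292 ± 29.6 CPM per kb. There the lowest Col3a1 library, at 325.9, lay just above the highest Col1a2 library, at 325.4.

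The stretches before the RefSeq starts of 3 of these genes are shown because Col1a2, Col3a1 and Col5a1 encode chains of types I, III and V, the types to which the results below turn, and differ in composition. RefSeq (GRCm38.p6) gave a start for 7 of the 9 genes, and Col1a1 and Col5a2 are named only. Each run is the 250 bases before the start, on the plus strand, at chr6:4505368-4505617 for Col1a2, chr1:45311288-45311537 for Col3a1 and chr2:27886175-27886424 for Col5a1. Capitals mark the TATA-box letters TATAA (reverse complement TTATA), the CCAAT-box letters CCAAT (reverse complement ATTGG) and the GC-box letters GGGCGG (reverse complement CCGCCC).
Col1a2: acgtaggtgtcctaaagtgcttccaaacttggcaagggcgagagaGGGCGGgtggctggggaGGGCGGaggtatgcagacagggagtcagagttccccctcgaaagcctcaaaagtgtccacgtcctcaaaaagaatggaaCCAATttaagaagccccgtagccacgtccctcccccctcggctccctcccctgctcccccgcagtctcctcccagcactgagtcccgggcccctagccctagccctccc
Col3a1: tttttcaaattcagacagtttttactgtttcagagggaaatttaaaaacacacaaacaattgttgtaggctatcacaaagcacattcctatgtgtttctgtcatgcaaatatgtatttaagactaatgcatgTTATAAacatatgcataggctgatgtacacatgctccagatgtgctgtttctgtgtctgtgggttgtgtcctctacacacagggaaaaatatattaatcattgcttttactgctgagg
Col5a1: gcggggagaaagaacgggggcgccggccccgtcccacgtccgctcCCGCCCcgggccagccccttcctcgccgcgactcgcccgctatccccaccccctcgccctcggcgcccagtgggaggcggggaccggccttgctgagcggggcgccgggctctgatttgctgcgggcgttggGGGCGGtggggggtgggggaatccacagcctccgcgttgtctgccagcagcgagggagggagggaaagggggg
The Col3a1 stretch held 35.2% G and C, and 5.0% of the 32851 promoter stretches of the same length held less. For Col1a2 that content was 62.0% and for Col5a1 76.4%, with 76.7% and 97.0% of stretches below them. Col1a2 carried CCAAT starting 109 bases before the start and GGGCGG at 205 and 188 bases before it. Col3a1 carried TATAA at 117 bases before the start, overlapping TTATA at 118, and neither of the other motifs. Col5a1 carried GGGCGG at 73 and CCGCCC at 205 bases before the start. Over the 7 genes, 1 held TATAA (22.8% of all promoter stretches did), 3 held CCAAT (33.8%) and 5 held GGGCGG (32.7%), searched on both strands. These matches describe the letters of the windows only.

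**Figure D1:**
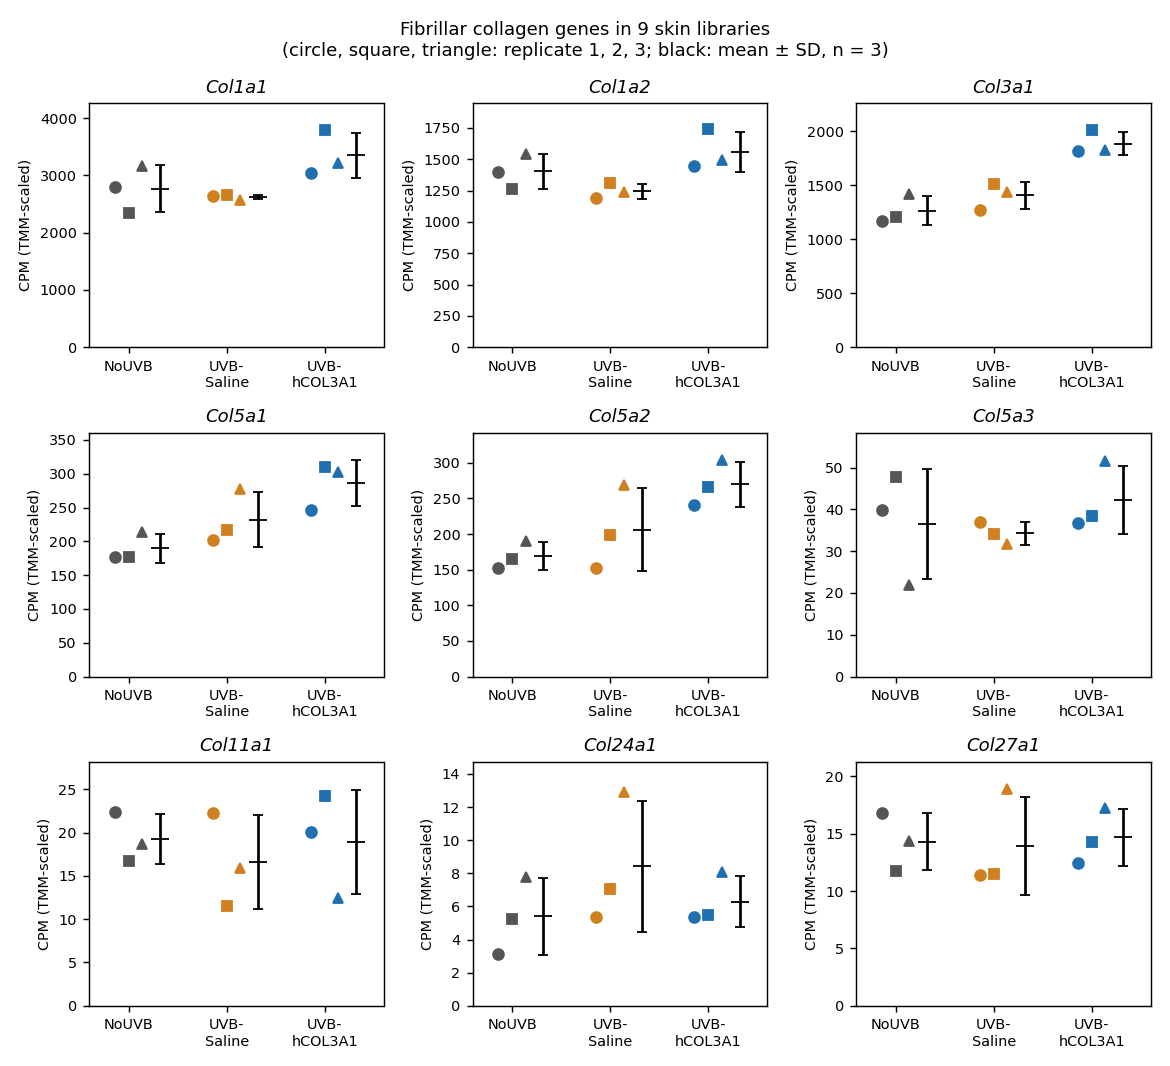
TMM-scaled CPM (vertical axis, from 0) of each fibrillar collagen gene in the 9 libraries, grouped by condition, with symbols for replicates 1 to 3 and black marks for the mean ± SD (n = 3). For Col1a1, Col1a2 and Col3a1 all UVB-hCOL3A1 libraries lie above all UVB-Saline libraries, while the panels of Col5a3, Col11a1, Col24a1 and Col27a1 overlap in all groups.

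The comparison of UVB-Saline with NoUVB addressed how these genes differed after repeated irradiation together with saline. None of the 9 was called by edgeR (0.0175% of all genes were). DESeq2 (0.646% of the genes it gave an adjusted p) and limma voom (3 of all 17168 genes) also called 0 of them. None had an unadjusted p under 0.05 (4.93% of all genes had one as higher and 4.6% as lower). The 3 major genes did not share a direction. Col1a1 stood at 2799, 2341 and 3168 CPM in NoUVB 1, 2 and 3 and at 2636, 2656 and 2575 CPM in UVB-Saline 1, 2 and 3. The saline libraries lay close together and inside the NoUVB range, for a log2 difference of -0.08 ± 0.13 (SE, edgeR adjusted p = 0.892, 95% interval -0.37 to 0.21). Col1a2 had 1400, 1262 and 1544 CPM in NoUVB and 1189, 1307 and 1237 in UVB-Saline. Its groups overlapped too, at a log2 difference of -0.17 ± 0.11 (edgeR adjusted p = 0.679, interval -0.42 to 0.08). Col3a1 had 1172, 1201 and 1418 CPM in NoUVB and 1272, 1510 and 1433 in UVB-Saline. Here 2 saline libraries lay above every NoUVB library and 1 lay inside their range, at a log2 difference of 0.15 ± 0.11 (edgeR adjusted p = 0.715, interval -0.10 to 0.40).

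The type V genes Col5a1 and Col5a2 were spread more widely in irradiated saline skin than in NoUVB. Col5a1 had 178, 177 and 214 CPM in NoUVB and 202, 216 and 278 in UVB-Saline (log2 difference 0.29 ± 0.14, edgeR adjusted p = 0.567). Col5a2 had 152, 165 and 191 CPM in NoUVB and 152, 199 and 268 in UVB-Saline (log2 difference 0.28 ± 0.19, edgeR adjusted p = 0.682). In both genes UVB-Saline 3 was the highest of the 6 libraries and the groups overlapped. Without UVB-Saline 3 the log2 difference was 0.13 for Col5a1 and 0.039 for Col5a2, and without UVB-Saline 1 it was 0.38 and 0.46. That library also had the lowest summed level of 10 hair follicle and dermal papilla markers, 1178 CPM against 5230 to 11301 in the other 5 libraries of this comparison, and the part of that in the values was not tested.

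The 4 genes of low level had no common direction either. Col5a3 ranged from 22.0 to 47.7 CPM in NoUVB and from 31.7 to 37.1 in UVB-Saline, and Col11a1 from 16.7 to 22.4 and from 11.5 to 22.3. Col27a1 ranged from 11.8 to 16.8 CPM in NoUVB and from 11.4 to 18.9 in UVB-Saline. For Col24a1 the ranges were 3.12 to 7.79 and 5.34 to 12.9 CPM, with the highest value again in UVB-Saline 3. Col24a1 had the largest log2 difference of the 9, 0.61, and a 95% interval from -0.25 to 1.47. A rise of up to 1.47 or a small fall on that scale could therefore not be told apart from these libraries. The Col24a1 log2 difference was 0.17 without UVB-Saline 3, where Col27a1 at -0.32 differed more, and 0.96 without NoUVB 3. Of the 9 genes 4 had a positive log2 difference (51.8% of all genes did), and the median was -0.04, against 0.01 over all genes tested.

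UVB-hCOL3A1 was set against UVB-Saline to see how these genes differed in irradiated skin given collagen RNA, with any carrier, in place of saline. A positive log2 difference was found in 8 of the 9 genes (46.1% of all genes had one), with a median of 0.30 against -0.02 over all genes tested. None passed edgeR's test over all genes (0.0% of all genes did), 3 had an unadjusted p under 0.05 as higher (5.97% of all genes), and in those 3, Col1a1, Col1a2 and Col3a1, the groups did not overlap (8.95% of all genes lay wholly higher). Limma voom called 0 of the 9 and 0 of all 17168 genes. DESeq2 called 1, Col3a1, among 1.43% of the genes it gave an adjusted p.

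Mouse Col3a1 had 1814, 2006 and 1827 CPM in UVB-hCOL3A1 1, 2 and 3, against 1272, 1510 and 1433 in UVB-Saline. Every library of the treated group lay above every saline library. Its log2 difference was 0.42 ± 0.11 (SE, edgeR adjusted p = 0.247, 95% interval 0.17 to 0.67), or 34.0% higher. By p, Col3a1 ranked 245 of the 17168 genes. Its adjusted p was 0.0258 by DESeq2 and 0.0159 by edgeR with no filter on low counts, which called 0.298% of its genes.

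Both type I genes had the same arrangement of libraries with smaller log2 differences. Col1a1 had 3048, 3797 and 3220 CPM in UVB-hCOL3A1 against 2575 to 2656 in UVB-Saline. The log2 difference was 0.36 ± 0.13 (edgeR adjusted p = 0.377, interval 0.06 to 0.65). For Col1a2 the values were 1445, 1740 and 1492 CPM against 1189 to 1307, at a log2 difference of 0.33 ± 0.11 (edgeR adjusted p = 0.348, interval 0.07 to 0.58). In all 3 major genes UVB-hCOL3A1 2 was the highest library.

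Among the type V genes the groups overlapped. Col5a1 had 247, 309 and 302 CPM in UVB-hCOL3A1, of which 1 lay below the 278 CPM of UVB-Saline 3 (log2 difference 0.30 ± 0.14, edgeR adjusted p = 0.458). Col5a2 had 241, 266 and 304 CPM, of which 2 lay below the 268 CPM of UVB-Saline 3 (log2 difference 0.39 ± 0.19, edgeR adjusted p = 0.472). Without UVB-Saline 3 the log2 difference was 0.47 for Col5a1 and 0.64 for Col5a2, and without UVB-Saline 1 it was 0.21 for both, with neither gene called in either fit. Col5a3 ranged from 36.8 to 51.6 CPM in UVB-hCOL3A1, with a log2 difference of 0.30 ± 0.25 (edgeR adjusted p = 0.698).

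Col24a1 was the 1 gene with a negative log2 difference, -0.42 ± 0.38 (edgeR adjusted p = 0.717), and it was 0.03 without UVB-Saline 3. Its treated libraries had 5.34, 5.46 and 8.10 CPM. Col11a1, at 12.4 to 24.3 CPM, had a log2 difference of 0.20 ± 0.28, and Col27a1, at 12.4 to 17.3 CPM, had 0.08 ± 0.22. Their 95% intervals, -0.43 to 0.83 and -0.41 to 0.56, include differences as large as those of the major genes.

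**Figure D2:**
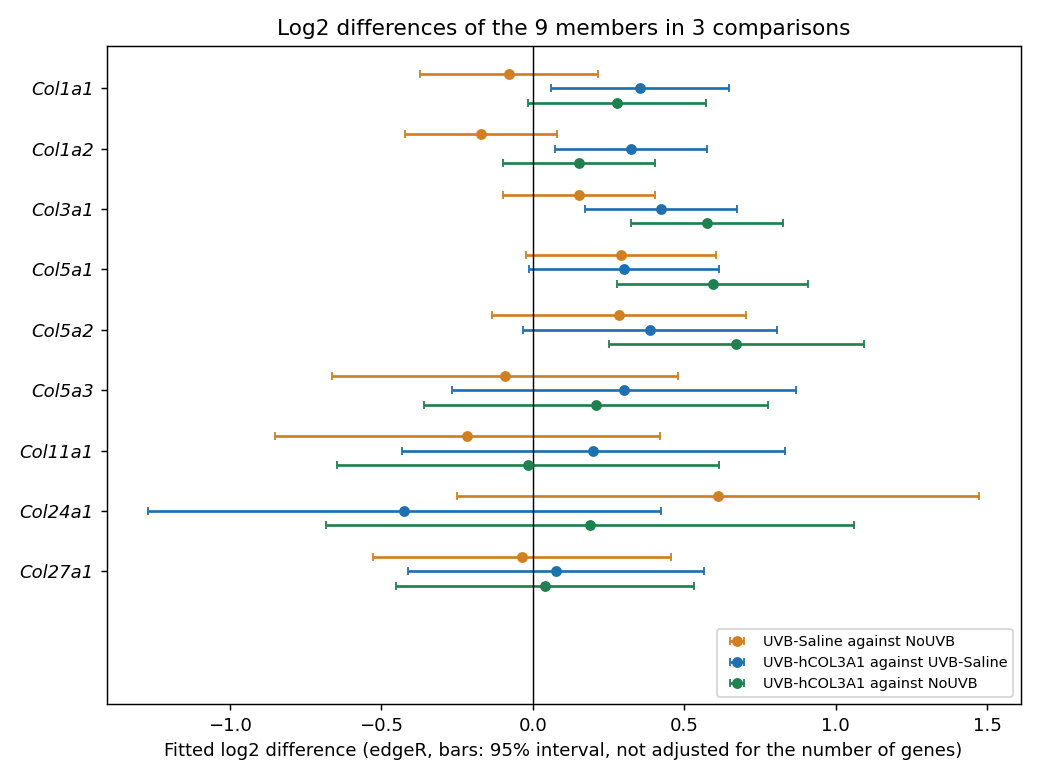
Fitted log2 differences (horizontal axis) of the 9 genes in each of the 3 comparisons, with bars for the 95% interval of the edgeR fit, not adjusted for the number of genes. The intervals of Col1a1, Col1a2 and Col3a1 lie above 0 for UVB-hCOL3A1 against UVB-Saline, and those of Col3a1, Col5a1 and Col5a2 for UVB-hCOL3A1 against NoUVB.

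Marker levels of several cell types differed between the same libraries. Summed over 15 markers, fibroblast genes came to 1044 to 1566 CPM in UVB-Saline and 1566 to 2020 CPM in UVB-hCOL3A1, with overlap at 1566. Vim and Gsn gave most of that sum. Taken singly, Cd34, Pi16, Twist2, Prrx1, Clec3b and Cd248 each lay wholly higher in UVB-hCOL3A1 (8.95% of all genes did). The other listed fibroblast markers overlapped. Adipocyte markers, 10 in number, summed to 705 to 1047 CPM in UVB-Saline and 1270 to 2089 in UVB-hCOL3A1. Skeletal muscle markers (9) summed to 263 to 875 CPM and 1021 to 1690 CPM. The adipocyte and the muscle sums did not overlap between the groups. Keratinocyte markers (10) went the other way, at 7761 to 10463 CPM in UVB-Saline and 6742 to 8577 in UVB-hCOL3A1, with overlap. In bulk skin, more cells of a type and more RNA per cell cannot be told apart, and the part of tissue make-up in the collagen values was not tested.

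Treated irradiated skin was also compared with unirradiated skin, a contrast that shares its libraries with the other comparisons. Positive log2 differences were found in 8 of the 9 genes (49.2% of all genes), with a median of 0.21 against -0.01 over all genes tested. Again none passed edgeR's test over all genes (0.0408% of all genes did) and limma voom called 0 of the 9 (1 of all 17168 genes). In Col3a1, Col5a1 and Col5a2 the groups did not overlap (10.7% of all genes lay wholly higher) and the unadjusted p was under 0.05 (6.29% of all genes, as higher). DESeq2 called these 3 genes, among 1.73% of the genes it gave an adjusted p. Macrophage markers summed to 503 to 504 CPM in NoUVB and 637 to 936 in UVB-hCOL3A1, and Schwann cell markers to 94.4 to 174 and 70.6 to 85.9 CPM, neither with overlap, and their part in these values was not tested.

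Col3a1 averaged 1882 ± 108 CPM in UVB-hCOL3A1 and 1264 ± 135 in NoUVB (SD, n = 3), 49.0% higher. The lowest treated library, at 1814 CPM, stood above the highest unirradiated one, at 1418 CPM. The log2 difference was 0.57 ± 0.11 (SE, edgeR adjusted p = 0.126, 95% interval 0.32 to 0.83). Col5a1 averaged 286 ± 34.4 and 190 ± 21.1 CPM (log2 difference 0.59 ± 0.14, edgeR adjusted p = 0.164), and Col5a2 270 ± 31.7 and 169 ± 19.5 CPM (0.67 ± 0.19, edgeR adjusted p = 0.218). The type I genes overlapped with NoUVB, at 0.28 ± 0.13 for Col1a1 (edgeR adjusted p = 0.447) and 0.15 ± 0.11 for Col1a2 (edgeR adjusted p = 0.640).

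The 3 genes passed the threshold in some other fits, which also changed the genes tested and the scaling. With only the 6 libraries of these groups in the edgeR fit, adjusted p was 0.0281 for Col3a1, 0.0275 for Col5a1 and 0.0145 for Col5a2, in a fit that called 2.47% of all genes. Leaving out UVB-Saline 3, which is in neither group, gave 0.0354, 0.0279 and 0.0269, with 1.37% of all genes called. Leaving out UVB-Saline 1 gave 0.0436 for Col3a1 and called no other of the 9, with 0.817% of all genes called.

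The summed level of the 9 genes followed the major members. As a percent of all counts without Rn18s-rs5 they made up 0.936 ± 0.0986 in NoUVB, 0.954 ± 0.0599 in UVB-Saline and 1.27 ± 0.108 in UVB-hCOL3A1 (SD, n = 3). UVB-hCOL3A1 libraries lay at 1.22, 1.40 and 1.21 percent, above all 6 others, whose highest value was 1.03 percent. Each of these 2 differences had an exact permutation p = 0.1, two-sided, which is the smallest that 3 against 3 libraries allow (adjusted p = 0.15 over 3 tests). UVB-Saline and NoUVB overlapped (exact permutation p = 1.0). With Rn18s-rs5 kept in the total, the treated group no longer stood apart: it differed by 0.135 percentage points from UVB-Saline (exact permutation p = 0.2) and by 0.111 from NoUVB (exact permutation p = 0.4).

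Ratios of chains within a library need no scaling between libraries. The Col1a2 to Col1a1 ratio of estimated counts was 0.500, 0.539 and 0.487 in NoUVB, 0.451, 0.492 and 0.480 in UVB-Saline, and 0.474, 0.458 and 0.463 in UVB-hCOL3A1. All treated libraries lay below all NoUVB libraries, a mean log2 difference of -0.13. For Col3a1 to Col1a1 the ratios were 0.419, 0.513 and 0.448 in NoUVB, 0.482, 0.568 and 0.557 in UVB-Saline, and 0.595, 0.528 and 0.567 in UVB-hCOL3A1. Treated libraries lay above NoUVB ones, a mean log2 difference of 0.30, while UVB-Saline overlapped with both groups.

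The Col5a1 to Col1a1 ratio separated both irradiated groups from NoUVB. It averaged 0.0689 ± 0.00629 in NoUVB, 0.0887 ± 0.0168 in UVB-Saline and 0.0854 ± 0.00733 in UVB-hCOL3A1 (SD, n = 3). The lowest irradiated library had 0.0767 and the highest NoUVB library 0.0758, so the gap was narrow. Col5a2 to Col1a1 averaged 0.0617 ± 0.00825, 0.0789 ± 0.0236 and 0.0810 ± 0.0123 in the same order, with overlap in each comparison. Each pair of groups named here as not overlapping had an exact permutation p = 0.1, two-sided, the smallest the design allows, and an adjusted p = 0.3 over 12 ratio tests. Between UVB-hCOL3A1 and UVB-Saline all 4 ratios overlapped (exact permutation p from 0.6 to 0.9), with mean log2 differences from -0.04 to 0.08.

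**Figure D3:**
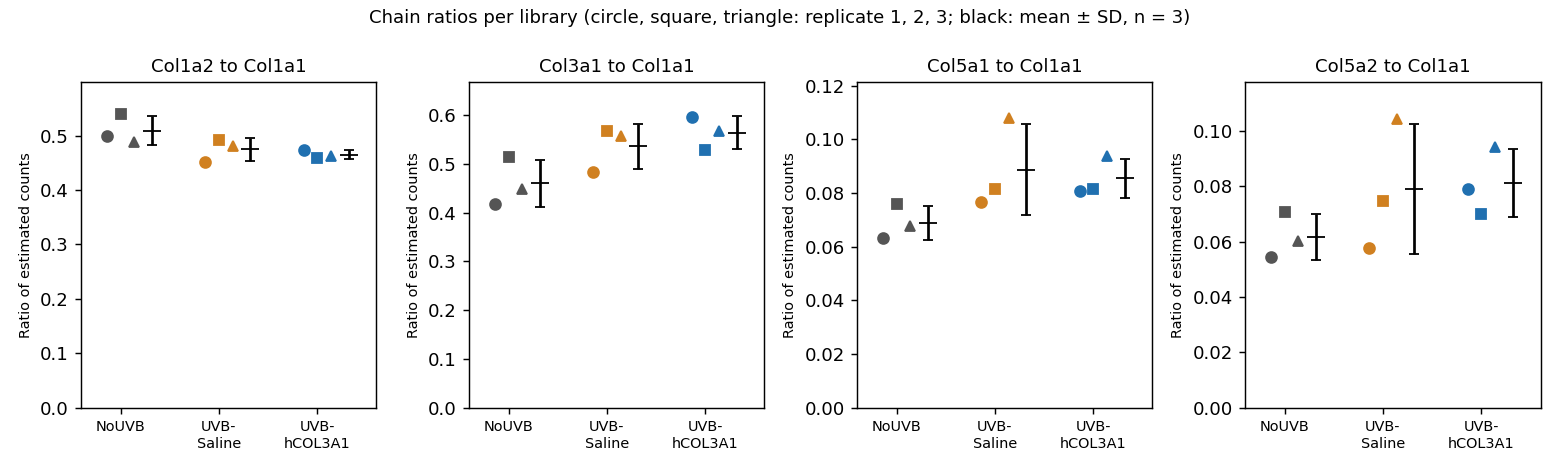
Ratio of estimated counts (vertical axis, from 0) of 4 chains to Col1a1 in each library, with symbols for replicates 1 to 3 and black marks for the mean ± SD (n = 3). The Col5a1 ratio is below 0.076 in the NoUVB libraries and above it in the 6 irradiated ones, and the treated and saline groups overlap in each panel.

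Genes that make, trim, bind and cleave fibrillar collagen were described as 6 lists of 87 genes, of which 81 were tested. In UVB-hCOL3A1 against UVB-Saline, 71 of the 81 had a positive log2 difference (46.1% of all genes), 41 lay wholly higher (8.95%) and 0 wholly lower (8.33%). None passed over all genes by edgeR or limma voom, 33 had an unadjusted p under 0.05 as higher (5.97% of all genes) and 0 as lower (5.32%), and DESeq2 called 9, all higher (1.43% of its genes in either direction). In UVB-Saline against NoUVB, which uses the same saline libraries, 41 of the 81 were positive (51.8%), 0 lay wholly higher (7.18% of all genes did) and 14 wholly lower (6.61%). There edgeR and limma voom called 0, DESeq2 called 3 as lower (0.646% of its genes in either direction), and 3 had an unadjusted p under 0.05 as higher (4.93% of all genes) and 12 as lower (4.6%). Fibroblast markers summed to 1474 to 1966 CPM in NoUVB and 1044 to 1566 in UVB-Saline, and adipocyte markers to 941 to 2386 and 705 to 1047. Keratinocyte markers summed to 7078 to 8330 CPM in NoUVB and 7761 to 10463 in UVB-Saline. These sums overlapped between the groups, and the part of tissue make-up in the partner values was not tested. In UVB-hCOL3A1 against NoUVB, 63 of the 81 were positive (49.2% of all genes), 36 lay wholly higher and 3 wholly lower (10.7% of all genes each way). EdgeR and limma voom again called 0, and DESeq2 called 9, all higher (1.73% of its genes in either direction). An unadjusted p under 0.05 was found as higher in 31 (6.29% of all genes) and as lower in 3 (948 of all 17168 genes). Scaled by library size alone, 68, 26 and 54 of the 81 were positive in the 3 comparisons, in the order given. Of all 17168 genes, edgeR called 0, 3 and 7 and limma voom 0, 3 and 1 in the same order.

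Proteins at the fibril surface had the highest list median in UVB-hCOL3A1 against UVB-Saline, 0.69 over 17 tested genes. Of these, 16 were positive (46.1% of all genes) and 14 lay wholly higher (8.95%). Aspn, encoding asporin, a small leucine-rich proteoglycan, averaged 59.1 ± 8.40 CPM against 29.1 ± 5.89 (log2 difference 1.02 ± 0.20, edgeR adjusted p = 0.202). Dcn, encoding decorin, which coats collagen fibrils, averaged 570 ± 129 against 298 ± 46.3 CPM (0.93 ± 0.22, edgeR adjusted p = 0.222). Postn, encoding periostin, averaged 723 ± 66.5 against 449 ± 110 CPM (0.69 ± 0.17, edgeR adjusted p = 0.225). In UVB-Saline against NoUVB, 7 of these 17 genes were positive and 10 negative (median -0.12). There Dcn had a log2 difference of -1.05 ± 0.22 (edgeR adjusted p = 0.266) and Tnxb, encoding the fibril-spacing tenascin-X, -0.64 ± 0.16 (edgeR adjusted p = 0.305). Col12a1, a fibril-associated collagen gene named here after its values were seen, had 0.87 ± 0.27 (edgeR adjusted p = 0.393).

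Propeptide cleavage and crosslinking genes were positive in 11 of 12 in UVB-hCOL3A1 against UVB-Saline (median 0.43, 5 wholly higher). Over all genes, 46.1% were positive there and 8.95% lay wholly higher. The log2 difference was 0.78 ± 0.12 for Pcolce, an enhancer of procollagen C-propeptide removal (edgeR adjusted p = 0.128), 0.57 ± 0.10 for Loxl2 (0.145) and 0.73 ± 0.24 for Loxl1 (0.336), both lysyl oxidases that crosslink matrix. In UVB-Saline against NoUVB, 7 of the 12 were positive (median 0.06), while Pcolce and its relative Pcolce2 had -0.51 ± 0.12 and -1.22 ± 0.26 (edgeR adjusted p = 0.302 and 0.266). Folding and modification genes were positive in 15 of 19 (median 0.19, 8 wholly higher). Serpinh1, the collagen chaperone HSP47, was at 0.52 ± 0.12 (edgeR adjusted p = 0.206), Sparc, a collagen-binding matricellular protein, at 0.51 ± 0.11 (0.202) and the lysyl hydroxylase Plod1 at 0.34 ± 0.13 (0.395). In UVB-Saline against NoUVB, 14 of these 19 were positive (median 0.07), Sparc was at -0.34 ± 0.11 (edgeR adjusted p = 0.393) and P4ha3, a prolyl hydroxylase subunit, at 1.11 ± 0.39 (0.426).

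Secretion and transcription genes were positive in 12 of 14 in UVB-hCOL3A1 against UVB-Saline (median 0.23, 6 wholly higher), where 46.1% of all genes were positive and 8.95% wholly higher. Creb3l1, a membrane-bound transcription factor that activates collagen genes, stood at 0.70 ± 0.15 (edgeR adjusted p = 0.202), the receptor gene Tgfbr2 at 0.51 ± 0.17 (0.332) and the ligand Tgfb1 at 0.47 ± 0.17 (0.360). In UVB-Saline against NoUVB, 7 of these 14 were positive (median -0.0044), Tgfb2 was at -0.72 ± 0.16 (edgeR adjusted p = 0.266) and Creb3l1 at -0.28 ± 0.15 (0.599). Receptors for collagen were positive in 7 of 8 (median 0.23, 2 wholly higher), with the integrin subunit Itgb1 at 0.33 ± 0.12 (edgeR adjusted p = 0.375), the inhibitory immune receptor Lair1 at 0.90 ± 0.48 (0.518) and the discoidin domain receptor Ddr2 at 0.21 ± 0.12 (0.544). Against NoUVB, UVB-Saline had 4 of these 8 positive (median 0.014), with Ddr2 at -0.30 ± 0.12 (edgeR adjusted p = 0.484) and Lair1 at 0.76 ± 0.52 (0.701).

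Among genes for collagen breakdown, 10 of 11 proteases and inhibitors were positive in UVB-hCOL3A1 against UVB-Saline (46.1% of all genes). Their median was 0.45, and 6 lay wholly higher (8.95% of all genes). Timp1 and Timp2, inhibitors of matrix metalloproteases, stood at 1.05 ± 0.29 and 0.45 ± 0.15 (edgeR adjusted p = 0.260 and 0.336), and Ctsk, a collagen-cleaving cathepsin, at 0.58 ± 0.17 (0.270). In UVB-Saline against NoUVB, 9 of these 11 were negative (median -0.28), with Ctsk at -0.51 ± 0.17 (edgeR adjusted p = 0.401) and Timp2 at -0.42 ± 0.15 (0.437).

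**Figure D4:**
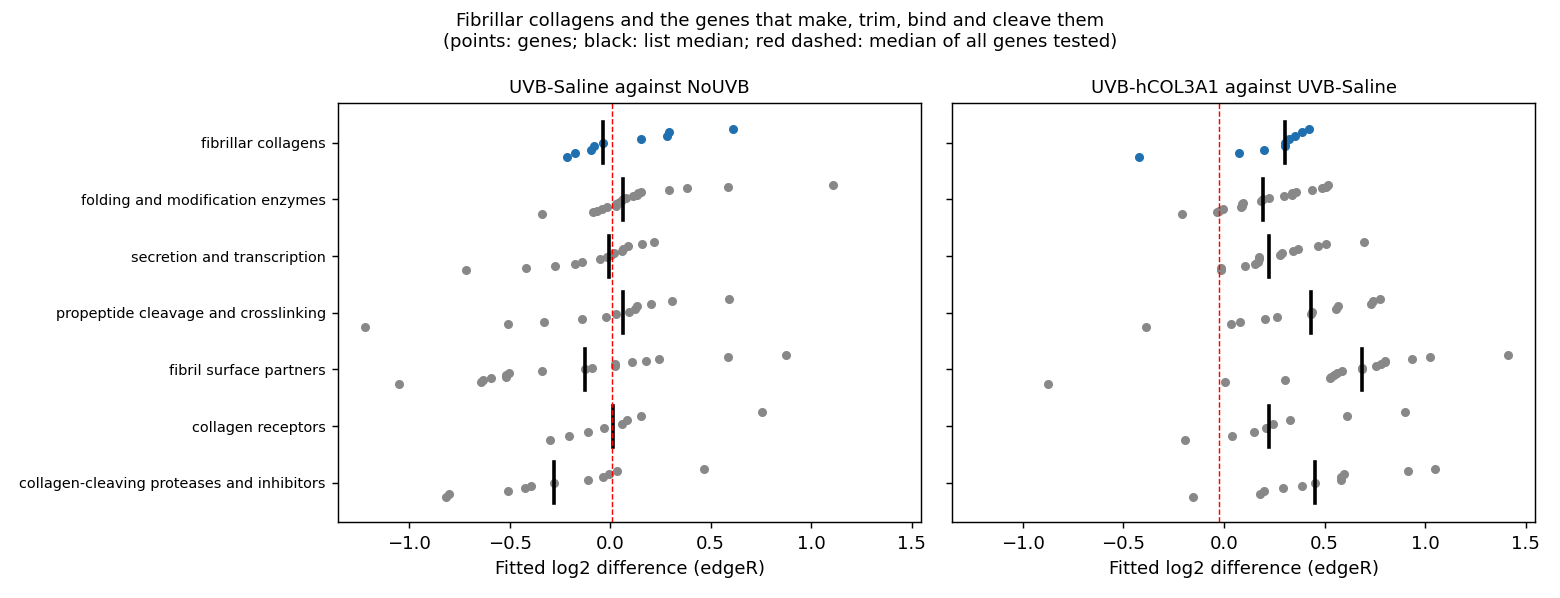
Fitted log2 differences (horizontal axis) of every tested gene in the fibrillar collagen list (blue) and the 6 partner lists (grey), for UVB-Saline against NoUVB on the left and UVB-hCOL3A1 against UVB-Saline on the right, with black bars for list medians and a red dashed line for the median of all genes tested. All 7 list medians lie above that line on the right, between 0.19 and 0.69, and both panels share the UVB-Saline libraries.

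By likeness of pattern, Pearson's r of log2 CPM over the 9 libraries against Col3a1 was highest for Champ1, a chromosome alignment protein, at 0.97 among 9266 genes of at least 3 in average log2 CPM. H2-T24, a non-classical class I histocompatibility gene (0.95), Hacd4, of fatty acid elongation (0.95), Calu, encoding the endoplasmic reticulum protein calumenin (0.94), and Postn (0.94) followed. Champ1 averaged 15.3 ± 0.776, 15.9 ± 0.627 and 18.7 ± 0.604 CPM in NoUVB, UVB-Saline and UVB-hCOL3A1 (SD, n = 3), and Calu 83.2 ± 7.50, 95.9 ± 6.89 and 120 ± 5.51 CPM. Among the collagens, Col5a1 was most like Col3a1 (0.88), followed by Col5a2 (0.85), Col1a1 (0.79) and Col1a2 (0.69). Col27a1 (0.12), Col5a3 (0.09) and Col11a1 (-0.09) had low values, and Col24a1 fell under the level limit. Col1a1 was most like Col1a2 (0.94), above all non-members, of which Uqcr10, a respiratory chain subunit (0.91), Aco1, a cytosolic aconitase (0.90), Zfp319 (0.90), Med8, a Mediator subunit (0.89), and Nupr1, a stress-induced factor (0.89), came next. These values describe 9 libraries that share 3 groups and carry no test.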

How the data were processed

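Per the labels' protocols, TRIzol was used to isolate total RNA from mouse skin, and reads were paired and 150 bp long. Listed per the submitters' processing notes, in no order, are RSEM 1.3.3, STAR 2.7.11b, DESeq2 1.44.0, Bowtie2 2.5.4, fastp 0.23.4 and, as build, GRCm39. The annotation release and strandedness were not given in the sources used here. The authors deposited 1 table of estimated counts per gene, of which 11.1% to 14.0% per library were not whole, and these were rounded for testing. Reads of overlapping genes (such as Gm43921 at Col1a2 and Gm38211 at Col5a2) cannot be told apart. No run of 150 bases in the transcripts of the 9 genes occurred in another gene's transcript in GENCODE M21 (GRCm38), whose longest principal transcripts, 5348 to 8406 bases, gave the lengths for CPM per kb.

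In R 4.3.3, edgeR 4.0.16 fitted all 9 libraries (filterByExpr, TMM, robust quasi-likelihood, 6 residual degrees of freedom), with two-sided tests, Benjamini-Hochberg adjustment over all 17168 genes and a threshold of 0.05. Fold changes are fitted log2 values. Alternatives were other scalings, filters and tools (DESeq2 1.42.0, limma 3.58.1 voom), fits of 2 groups, a replicate block, no ribosomal RNA genes and leaving out each library. The test was also tried on counts simulated with changes of at least 2-fold, larger than any fitted for the 9 genes. That trial does not speak to differences of their size. Members, gene lists and the naming rule were chosen with earlier results of these data known. The rule named all 9 members and, per partner list, the 3 genes with the smallest p in UVB-hCOL3A1 against UVB-Saline and the 2 in UVB-Saline against NoUVB, and the 5 genes most like Col3a1 and Col1a1. No libraries were identical, and chi-square per degree of freedom within groups was 8.18 to 250.0. Each library was counted as 1 replicate. These values cannot show that libraries came from different animals, since technical differences also raise them.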

Additional observations from a re-analysis of the deposited data

How the results depend on the processing

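Calls in UVB-Saline against NoUVB stayed at 0 of the 9 genes in every alternative run. Over all genes these runs ranged from 0 called, as without NoUVB 1, to 61 higher and 39 lower of 17168 by library size alone. In UVB-hCOL3A1 against UVB-Saline, DESeq2 and edgeR with no filter each called 1 (Col3a1), the other alternatives 0, also with each library left out. DESeq2 called 1.43% of the genes it gave an adjusted p, the fit with no filter 0.298% and limma voom 0 of all genes. The fit without UVB-Saline 3 called 71 higher and 7 lower of 17644 genes, and library size alone 16 higher and 14 lower of 17168. In UVB-hCOL3A1 against NoUVB the count was 2 with no filter, in a fit that called 107 of its 35553 genes higher and 71 lower. It was 3 with DESeq2 (1.73% of its genes called) and 3 with only the 2 groups fitted (2.47%). With the replicate block it was 2 (Col5a1 and Col5a2), with 89 of the 17168 genes called higher and 29 lower. Leaving out each library gave 0 to 3. The fits without any 1 of the NoUVB libraries, UVB-hCOL3A1 1 or UVB-hCOL3A1 2 called 0 of all genes. The cause of the varying count was not tested. Correlations of same-numbered libraries ranged from 0.02 to 0.41, and those of differently numbered libraries of different groups from -0.39 to 0.26. The labels give only a number, and whether it marks a pairing could not be decided from these values. The replicate block called 60 genes higher and 14 lower in UVB-hCOL3A1 against UVB-Saline, where the fit without it called 0.

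Leaving out each library, the median of the 9 genes ranged from -0.050 to 0.11 in UVB-Saline against NoUVB, from 0.24 to 0.41 in UVB-hCOL3A1 against UVB-Saline and from 0.17 to 0.39 in UVB-hCOL3A1 against NoUVB. It was 0.053 in the last comparison by library size alone, where the median of all genes was -0.12 and Col27a1 was at -0.033. Over the same omissions, log2 differences that changed sign were, for UVB-Saline against NoUVB, Col1a1 (-0.19 to 0.018), Col5a3 (-0.37 to 0.15) and Col27a1 (-0.32 to 0.087). For UVB-hCOL3A1 against UVB-Saline they were Col11a1 (-0.017 to 0.475), Col24a1 (-0.66 to 0.026) and Col27a1 (-0.046 to 0.37), and for UVB-hCOL3A1 against NoUVB Col5a3 (-0.047 to 0.46), Col11a1 (-0.23 to 0.22), Col24a1 (-0.048 to 0.55) and Col27a1 (-0.080 to 0.17). The summed percent differed by 0.0178 between UVB-Saline and NoUVB, -0.0232 with Rn18s-rs5 in the total and -0.0351 to 0.0624 with a library left out. Log2 ratio differences of UVB-hCOL3A1 against UVB-Saline ranged from -0.14 to 0.11 for Col5a1 to Col1a1 and from -0.13 to 0.29 for Col5a2 to Col1a1.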

Other observations

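The ratio of Col3a1 to Col1a2 was examined after its values were seen and is given with no test. Per kilobase of transcript it was 0.867 ± 0.0566 in NoUVB, 1.08 ± 0.0485 in UVB-Saline and 1.16 ± 0.0503 in UVB-hCOL3A1 (SD, n = 3). The NoUVB libraries lay between 0.805 and 0.915, and the 6 irradiated libraries between 1.03 and 1.21. Type III chain transcripts were thus below those of the second type I chain in each unirradiated library and above them in each irradiated one, with UVB-Saline (highest 1.113) and UVB-hCOL3A1 (lowest 1.108) overlapping. By contrast Col5a1 to Col5a2, the chains of the common type V heterotrimer, averaged 0.883 ± 0.0371, 0.908 ± 0.124 and 0.837 ± 0.0710 per kilobase in the same order, and all groups overlapped.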
